A study of Homo sapiens with 12 samples.

Results

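The genes described here are the nuclear genes of respiratory complexes II to V: 40 genes, of which 4 belong to complex II, 9 to complex III, 11 to complex IV and 16 to complex V. They were taken from a list of subunit names and matched to the gene names of the deposited tables. The matching did not use their values, but the list was chosen with earlier results of these data known. Each of the 40 was found at exactly 1 of the 30574 loci. The cells were IOSE80, an immortalised line derived from normal human ovarian surface epithelium. Cultures were exposed for 28 days to 0.1% DMSO, to bisphenol A (BPA) at 0.25 nM, to BPA at 2500 nM or to E2. BPA is a plastic monomer that binds oestrogen receptors weakly, and E2 commonly abbreviates estradiol, the main oestrogen of the ovary. No solvent is named for the BPA and E2 samples, so DMSO is treated as the vehicle; no E2 dose is stated by the labels. The DMSO group and each BPA group had 3 libraries and the E2 group 2, which makes 11 libraries of the 12 samples listed. The remaining sample, E2 replicate 3, was not analysed here. All libraries came from 1 cell line. Because separate cultures are not stated for the replicates, p-values reflect the spread among these libraries only, and that spread may be technical.

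The respiratory chain of the inner mitochondrial membrane passes electrons from nutrients to oxygen. Complex II (succinate dehydrogenase) feeds in electrons from the citric acid cycle, complex III (cytochrome bc1) hands them to cytochrome c, and complex IV (cytochrome c oxidase) reduces oxygen. Complexes III and IV pump protons, and complex V (ATP synthase) lets protons flow back through a rotating c ring to make ATP. Complex II is encoded wholly in the nucleus, whereas complexes III, IV and V each combine nuclear subunits with subunits of the mitochondrial genome. Nuclear respiratory factor 1 (NRF1), the ETS-family factor GABP and YY1 are textbook activators of many of the nuclear genes.

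The promoters of 4 of the genes described below are shown. None of the 4 passed the test for a change, and other members with a low p, UQCRC1 and UQCR10 among them, are not shown. UQCRH, ATP5MC1 and ATP5MC2 were among the members with the lowest unadjusted p in a BPA comparison, and COX7C had the lowest p of any member between the BPA doses. Each run gives the 150 bases before the RefSeq gene start on GRCh38.p14, 5′ to 3′ on the strand of the gene: UQCRH at chr1:46303548-46303697 on the + strand, ATP5MC1 at chr17:48892637-48892786 on the + strand, ATP5MC2 at chr12:53676084-53676233 on the - strand and COX7C at chr5:86617791-86617940 on the + strand. Capitals mark matches, on either strand, to the core motifs of NRF1 (GCATGCG), of ETS factors (CCGGAAG) or of YY1 (ATGGCGG).
UQCRH: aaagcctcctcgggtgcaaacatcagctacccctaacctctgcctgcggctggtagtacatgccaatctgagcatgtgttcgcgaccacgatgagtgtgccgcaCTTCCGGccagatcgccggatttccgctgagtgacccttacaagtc
ATP5MC1: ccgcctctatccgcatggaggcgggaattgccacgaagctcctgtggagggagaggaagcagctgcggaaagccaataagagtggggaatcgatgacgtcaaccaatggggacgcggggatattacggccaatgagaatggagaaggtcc
ATP5MC2: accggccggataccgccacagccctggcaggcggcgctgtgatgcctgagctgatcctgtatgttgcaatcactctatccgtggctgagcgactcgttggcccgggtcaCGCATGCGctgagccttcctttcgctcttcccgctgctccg
COX7C: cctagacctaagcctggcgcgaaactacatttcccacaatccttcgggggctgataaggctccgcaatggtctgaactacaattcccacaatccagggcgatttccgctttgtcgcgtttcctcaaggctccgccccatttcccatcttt
The UQCRH window holds 1 ETS core, on the reverse strand, 46 bases before the start. The ATP5MC2 window holds the NRF1 core on both strands, in matches that overlap and lie 40 and 41 bases before the start. GENCODE 29 places the starts of these genes further upstream than RefSeq. For UQCRH (46303631), ATP5MC1 (48892765) and COX7C (86617904) that start lies inside the window. For ATP5MC2 (53677408) it lies upstream of the whole window. By that annotation the matches of UQCRH and ATP5MC2 lie within the gene. The windows of ATP5MC1 and COX7C hold none of these letters, which says nothing about the factors themselves.

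RefSeq promoters of 300 bases, which reach from upstream of the gene start to just past it, were matched for 32 of the 40 members. The ETS core was found in 14 of them (43.8%), against 10.3% of all 35116 promoters. The NRF1 core was found in 8 (25.0%, against 3.91% of all), and the YY1 core in 6 (18.8%, against 5.55%). At least 1 of the 3 was present in 18 member promoters (56.2%), against 17.5% of all. Among the complexes, the NRF1 core was in 2 of 3 promoters of complex II, 0 of 7 of complex III, 2 of 10 of complex IV and 4 of 12 of complex V. The ETS core was in 2, 3, 5 and 4 of the same promoters. The member promoters were taken 1 per gene, whereas the 35116 were limited neither to 1 per gene nor to expressed genes. The shares are thus not like for like. These are matches of letters and are given as a description.

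The authors deposited FPKM (fragment counts divided by transcript length and by library size), so levels can be compared between genes, and every level is relative to the rest of its library. In bulk RNA of this kind, fewer cells expressing a gene and less RNA per cell cannot be told apart. FPKM totals were 206719 to 213663 per library, with 21223 to 23696 loci above 0, and the read depth is unknown. Mitochondrial loci took 13.6 to 14.3% of the FPKM in DMSO, 12.6 to 12.7% in BPA 0.25 nM, 12.9 to 13.6% in BPA 2500 nM and 12.3 to 14.0% in E2. Of 11 ovarian surface and epithelial markers, 9 had a mean under 1 FPKM. KRT18 stood at 22.8 FPKM, and WT1, MSLN, UPK3B, CALB2, BNC1 and CDH1 were at 0.05 FPKM or less. Most markers on this list for the labelled cell type were thus near 0. PTPRC of leukocytes and CDH5 of endothelial cells were also near 0, whereas CD68 of the leukocyte list stood at 46.0 FPKM, at a locus that joins 3 other coding genes. In the granulosa list FOXL2 stood at 6.78 FPKM, but INHA at 1.28 and AMH at 0.78 FPKM, and FSHR was matched to no locus. The summed fibroblast markers were 37.4 to 39.5 FPKM in DMSO, 38.0 to 40.7 in BPA 0.25 nM, 30.0 to 30.6 in BPA 2500 nM and 34.4 to 36.4 in E2. COL3A1 made up most of that sum and was called lower in BPA 2500 nM against DMSO (31.3 ± 0.89 to 23.4 ± 0.40 FPKM, SD, n = 3 each; log2 difference -0.40, limma adjusted p = 0.00591) and against BPA 0.25 nM (-0.43, adjusted p = 0.0267). PDGFRA stood at 5.187 FPKM in DMSO and 5.19 FPKM in BPA 2500 nM, and COL1A2, DCN, LUM and PDGFRB were near 0. Whether this has a part in the results was not tested.

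The members were abundantly expressed. Their mean FPKM over the 11 libraries had a median of 48.5, which placed the median member at percentile 94.9 of the 12182 loci tested. Values ranged from 6.76 FPKM for SDHA, the flavoprotein that oxidises succinate, to 370.8 FPKM for ATP5F1B, the catalytic beta subunit of ATP synthase. UQCRH, the acidic hinge protein of complex III, was next at 156 FPKM, followed by UQCR10, a small complex III subunit, at 111 FPKM. The median was 10.2 FPKM for complex II, 54.9 for complex III, 56.2 for complex IV and 43.4 for complex V. Some members sit at loci that also name other genes, SDHA and SDHD of complex II among them. Over members at loci naming no other gene, the medians were 34.4, 65.3, 66.0 and 61.05 FPKM. For complex II that median rests on 2 genes. Within complex II the iron-sulfur subunit SDHB stood at 58.1 FPKM, while the membrane anchors SDHC and SDHD stood at 10.7 and 9.70 FPKM.

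Levels within a complex were thus unequal on the per-length scale. In the F1 head of complex V, ATP5F1A (alpha) stood at 40.8 FPKM and ATP5F1C (gamma, the central shaft) at 94.0, against the 370.8 of ATP5F1B. In complex IV the range was 14.5 FPKM for COX7A2L, known as a factor of supercomplex assembly, to 92.6 FPKM for COX5B. Part of these levels rests on loci that join genes: 10 members sit at a locus that names another protein-coding gene, SDHA with PDCD6 and AHRR and ATP5MG with KMT2A and TMEM25 among them. The median of those 10 members was 27.0 FPKM, against 57.6 FPKM for the other 30. For the 10, a value belongs to the joined locus and not to the member alone.

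**Figure D1:**
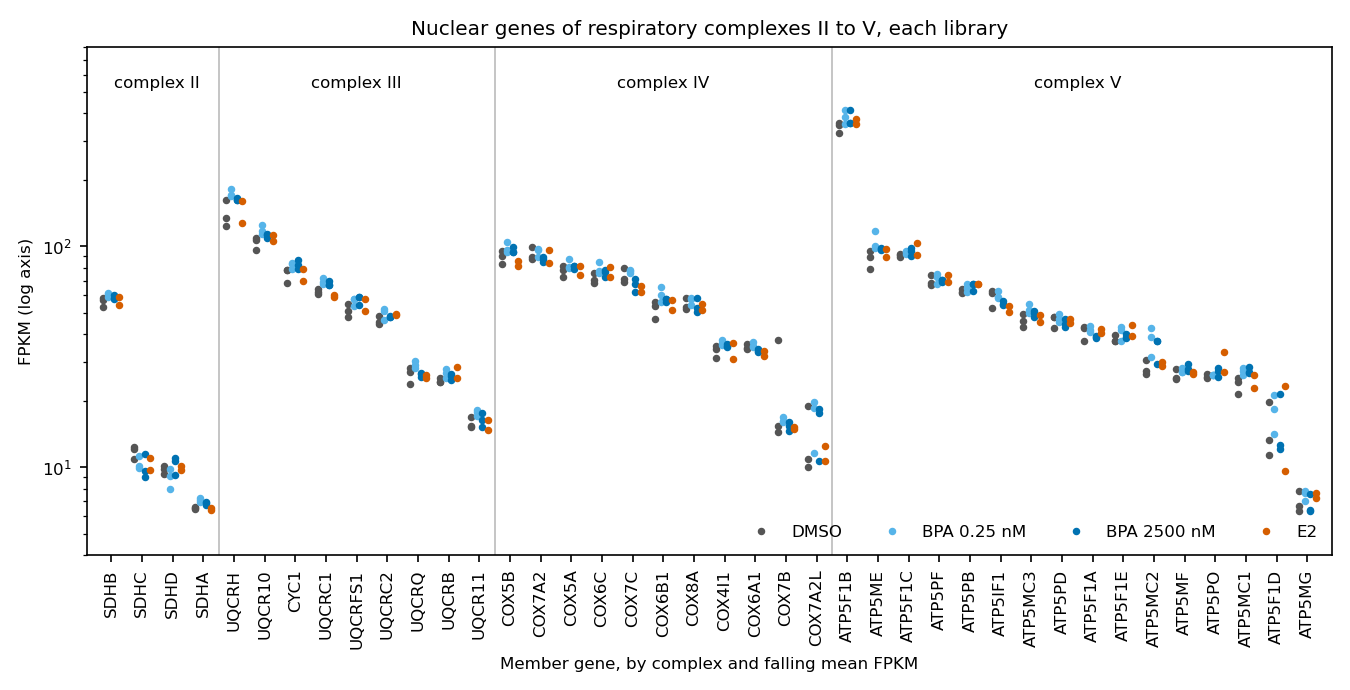
FPKM of each of the 40 members (log axis), grouped by complex, with 1 point per library coloured by treatment. ATP5F1B is highest, with a mean of 370.8 FPKM, and SDHA lowest, with a mean of 6.76 FPKM; points of 1 gene lie close together except for COX7B, COX7A2L and ATP5F1D.

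The spread between libraries of 1 group was small for most members. The coefficient of variation within groups had a median of 5.88%. On the log2(FPKM + 1) scale the within-group SD had a median of 0.0816 for the members, against 0.0875 for all tested loci of at least 10 FPKM. The ratio of the highest to the lowest library had a median of 1.24 and was lowest for ATP5PB, a peripheral stalk subunit, at 1.11. Only COX7B, COX7A2L and ATP5F1D had a within-group SD above 0.2; apart from COX7B they were singled out after their values were seen.

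COX7B, a small complex IV subunit, owed its spread to 1 library. It stood at 37.8, 14.4 and 15.3 FPKM in the DMSO libraries, at 15.9, 16.8 and 16.2 in BPA 0.25 nM, at 15.3, 14.7 and 15.9 in BPA 2500 nM and at 14.9 and 15.2 in E2. DMSO replicate 1 stood far above the other 10 libraries, which lay between 14.4 and 16.8 FPKM. The fitted difference of BPA 0.25 nM from DMSO was -0.31 (95% interval -0.95 to 0.34) with that library and 0.12 ± 0.05 (SE) without it.
COX7A2L and ATP5F1D, the delta subunit of F1, differed between libraries within most groups. COX7A2L stood at 19.0, 9.99 and 10.9 FPKM in DMSO, at 11.6, 19.7 and 18.6 in BPA 0.25 nM, at 10.7, 17.5 and 18.3 in BPA 2500 nM and at 10.6 and 12.4 in E2. ATP5F1D stood at 13.3, 19.8 and 11.4 FPKM in DMSO, at 18.4, 14.1 and 21.3 in BPA 0.25 nM, at 12.7, 12.0 and 21.5 in BPA 2500 nM and at 23.2 and 9.58 in E2. For both genes the groups overlapped in all comparisons, and their intervals were among the widest of the members.

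All 12182 loci were fitted in 4 comparisons: each treatment against DMSO, and BPA 2500 nM against BPA 0.25 nM. The comparisons with DMSO share the same 3 control libraries and are not independent of each other. No member was called changed in any of the 4 (limma, adjusted p under 0.05). In BPA 0.25 nM against DMSO, 2 of all tested loci were called (0.0164%), both higher (0.0164%) and 0 lower (0.0%). In BPA 2500 nM against DMSO 158 loci were called (1.3%; 0.402% higher and 0.895% lower), and in E2 against DMSO 51 (0.419%; 0.164% higher and 0.254% lower). Between the BPA doses 8 loci were called (0.0657%; 0.0164% higher and 0.0493% lower). Read against these shares, 0 of 40 members is near the background.

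The 95% intervals were taken for each member singly and reflect only the spread among these libraries. They apply to log2(FPKM + 1), so a fold here is one of FPKM + 1. In BPA 0.25 nM against DMSO, the intervals of 36 of the 40 members lay within 1.5-fold either way on that scale. The exceptions were COX7A2L, COX7B, ATP5F1D and ATP5MC2. In each of the other 3 comparisons the count was 37, with COX7A2L, COX7B and ATP5F1D outside. The median standard error of a member was 0.0653 in the BPA comparisons and 0.073 for E2.

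**Figure D2:**
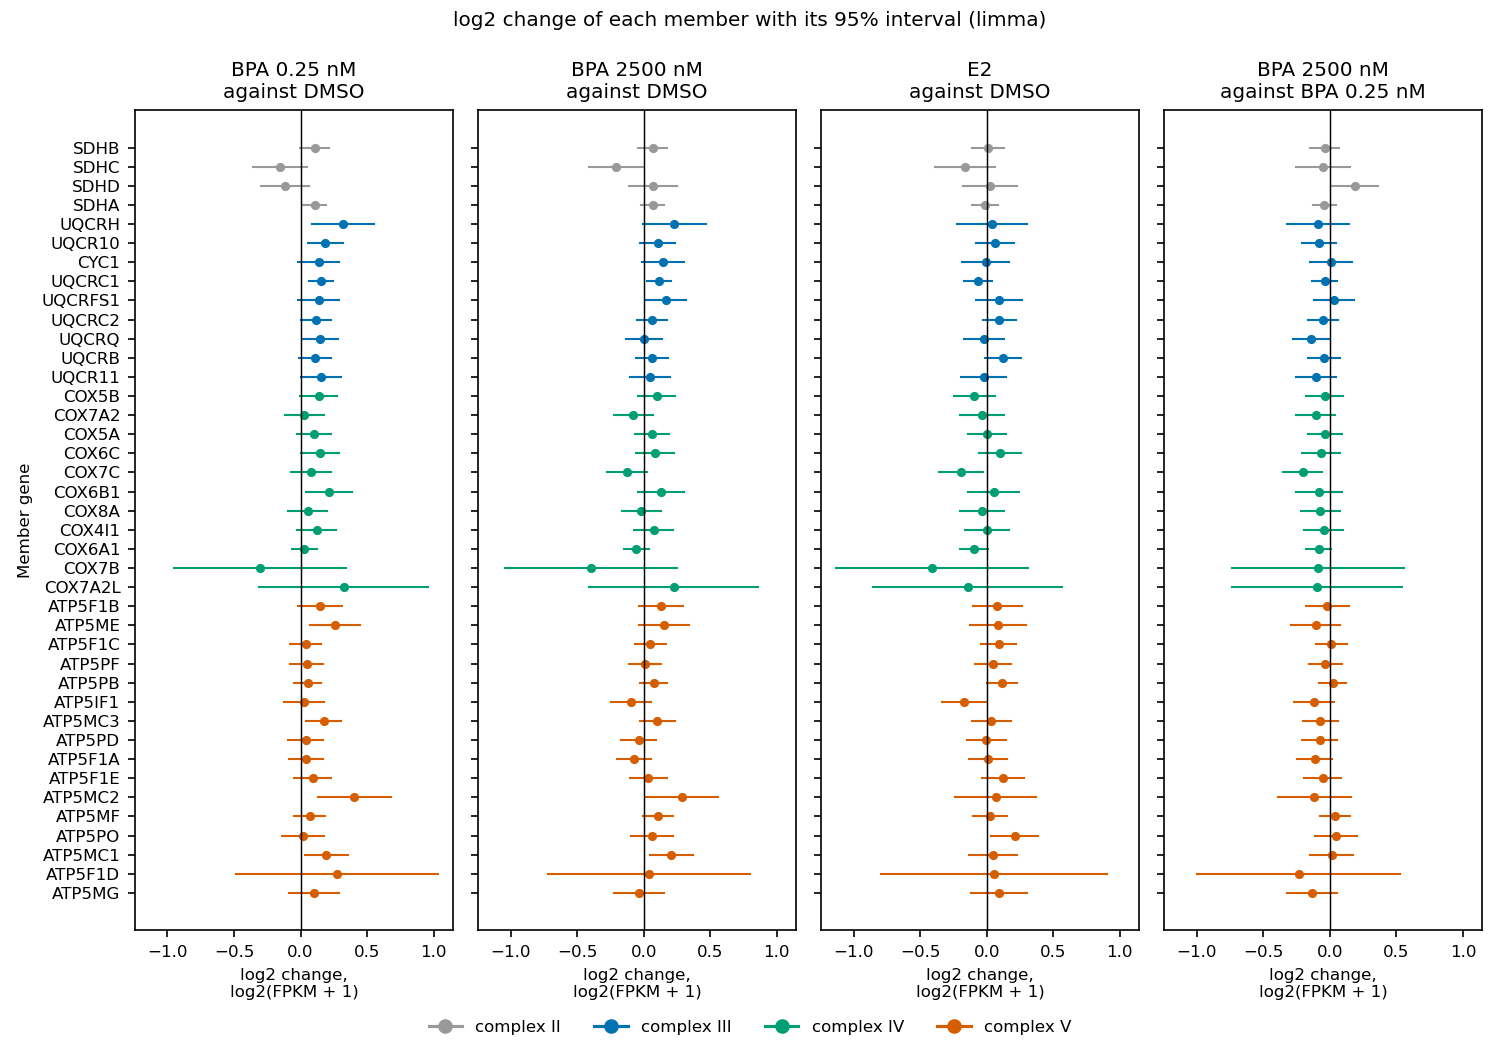
Difference of each member on the log2(FPKM + 1) scale in the 4 comparisons, with its 95% interval from limma, coloured by complex. Points lie mostly right of 0 for BPA 0.25 nM against DMSO (37 of 40) and mostly left of 0 between the BPA doses (32 of 40), and COX7B, COX7A2L and ATP5F1D have the widest intervals.

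In BPA 0.25 nM against DMSO the members leaned to higher values, though none passed the test. The difference was positive for 37 of the 40, against 50.3% of all tested loci, and had a median of 0.11 on the log2 scale, against 0.00 for all loci. The 3 BPA libraries lay wholly above the 3 DMSO libraries for 15 members and wholly below for 0; among all loci these shares were 9.01% and 8.05%. At an unadjusted p under 0.05, limma counted 13 members higher and 0 lower, against 5.24% and 3.87% of all loci. The lowest adjusted p of any member was 0.380. By complex, all 9 of complex III and all 16 of complex V had positive differences, as did 10 of 11 of complex IV and 2 of 4 of complex II. Whether the complexes differ in this count was not tested.

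Part of this lean rested on single libraries. DMSO replicate 2 was the lowest of the 11 libraries for 22 of the 40 members, and BPA 0.25 nM replicate 2 was the highest for 16. Without DMSO replicate 2, 33 of 40 differences were positive, with a median of 0.08. At an unadjusted p under 0.05, limma then counted 4 members higher, against 431 of 12102 tested loci. Without that library, 9 of 9 complex III, 13 of 16 complex V, 9 of 11 complex IV and 2 of 4 complex II differences were positive. Without BPA 0.25 nM replicate 2, 36 of 40 were positive, with a median of 0.09. Here limma counted 5 members higher at an unadjusted p under 0.05, against 466 of 12140 tested loci. The lower mitochondrial share of FPKM in BPA 0.25 nM moved in the opposite direction to the members. Scaled to the FPKM outside the mitochondrial loci, 33 of 40 differences were positive, with a median of 0.08 against -0.03 for all loci. With this scaling limma counted 8 members higher at an unadjusted p under 0.05, against 399 of 12176 tested loci.

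**Figure D3:**
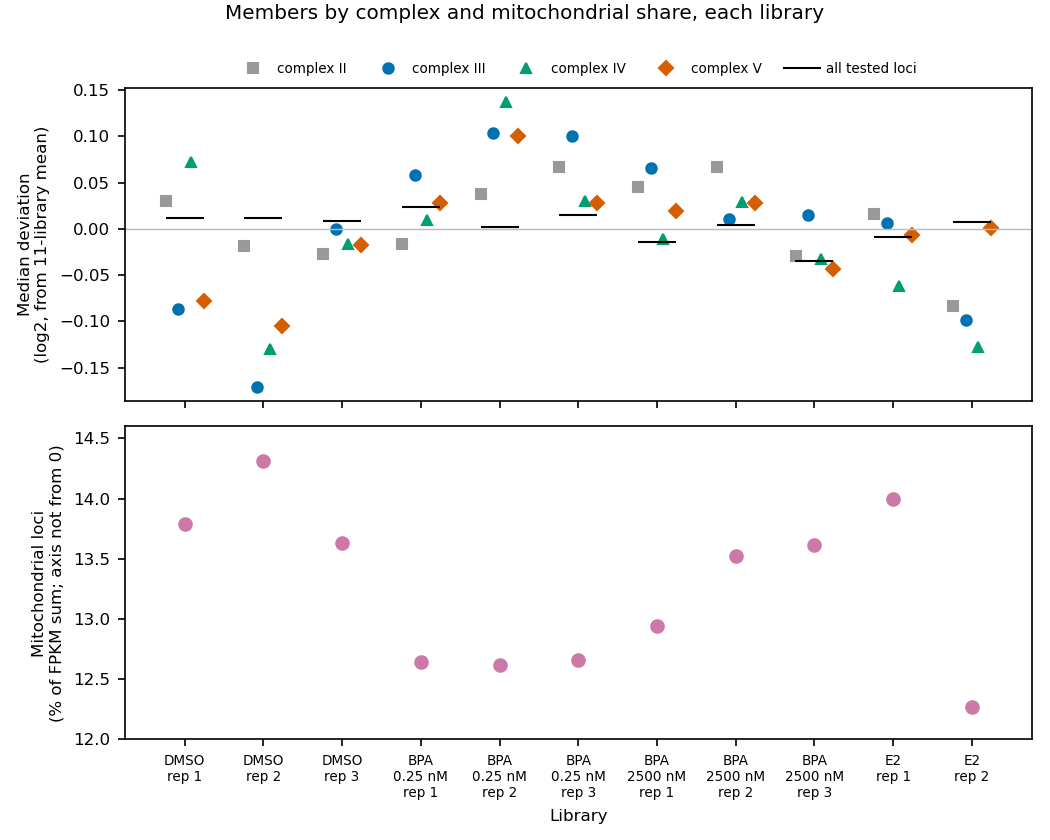
Upper panel: median deviation of each complex's members from their 11-library mean (log2), per library, with all tested loci as a black bar; lower panel: share of FPKM at mitochondrial loci in percent, on an axis that does not start at 0. DMSO replicate 2 has the lowest complex III value (-0.17) and the highest mitochondrial share (14.3%), and the 3 BPA 0.25 nM libraries lie at 12.6 to 12.7%.

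Complex III held 6 of the 15 members that separated at 0.25 nM, out of its 9 genes. UQCRC1, a core subunit, stood at 64.4, 61.0 and 61.9 FPKM in DMSO and at 67.5, 69.2 and 71.9 in BPA 0.25 nM. It also stood at 69.7, 66.6 and 66.7 FPKM in BPA 2500 nM and at 58.9 and 60.3 in E2. Both BPA groups were thus above every DMSO library, and both E2 libraries below. The log2 difference was 0.15 ± 0.04 (SE; adjusted p = 0.380) at 0.25 nM, 0.11 ± 0.04 (adjusted p = 0.199) at 2500 nM and -0.07 ± 0.05 (adjusted p = 0.548) for E2.

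UQCRH, the hinge subunit between cytochrome c1 and cytochrome c, stood at 134, 123 and 163 FPKM in DMSO and at 171, 182 and 169 in BPA 0.25 nM. In BPA 2500 nM it stood at 165, 162.4 and 162.5 FPKM, and in E2 at 160 and 128. DMSO replicate 3 was level with the BPA 2500 nM libraries, so only the 0.25 nM group was separate from DMSO. The log2 difference was 0.32 ± 0.10 (SE; adjusted p = 0.450) at 0.25 nM and 0.23 ± 0.10 (adjusted p = 0.299) at 2500 nM; without DMSO replicate 2 the latter was 0.14. UQCRH was chosen after its values were seen. Reads of UQCRH may be shared with UQCRHL, its near-identical intronless copy, which stood at 4.82 ± 1.01 FPKM in DMSO and 6.003 ± 0.176 in BPA 0.25 nM (SD, n = 3 each); how such reads were assigned is not stated by the labels, so both values are uncertain.

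UQCR10 stood at 107, 96.2 and 109 FPKM in DMSO, at 117, 125 and 114 in BPA 0.25 nM, at 113, 109.5 and 113 in BPA 2500 nM and at 112 and 105 in E2. Every BPA library lay above every DMSO library, by a small margin at 2500 nM. Its log2 difference was 0.19 ± 0.06 (SE; adjusted p = 0.442) at 0.25 nM and 0.10 ± 0.06 (adjusted p = 0.384) at 2500 nM, the latter 0.05 without DMSO replicate 2.
UQCRFS1, the Rieske iron-sulfur protein that takes electrons from ubiquinol, stood at 50.9, 47.7 and 54.9 FPKM in DMSO, at 53.6, 57.6 and 57.5 in BPA 0.25 nM, at 59.2, 59.1 and 54.4 in BPA 2500 nM and at 58.0 and 51.1 in E2. DMSO replicate 3 overlapped both BPA groups. The log2 difference at 2500 nM was 0.17 ± 0.07 (SE; adjusted p = 0.248).
UQCRB, a small subunit, stood at 24.3, 24.3 and 25.2 FPKM in DMSO, at 25.4, 27.9 and 26.7 in BPA 0.25 nM, at 26.0, 26.5 and 24.9 in BPA 2500 nM and at 25.4 and 28.4 in E2. The BPA 0.25 nM and E2 libraries lay above all DMSO libraries, and the 2500 nM libraries overlapped them. For UQCRB the log2 difference was 0.11 ± 0.05 (SE; adjusted p = 0.571) at 0.25 nM and 0.12 ± 0.06 (adjusted p = 0.377) for E2. UQCRQ, another small subunit, stood at 28.05, 23.76 and 26.86 FPKM in DMSO, which overlapped both BPA groups. It stood at 28.0, 30.1 and 28.9 FPKM in BPA 0.25 nM and at 26.7, 26.4 and 25.6 in BPA 2500 nM. All libraries of the higher dose lay below those of the lower. That difference was -0.14 ± 0.06 (SE; adjusted p = 0.631), for a locus that also names LEAP2.

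**Figure D4:**
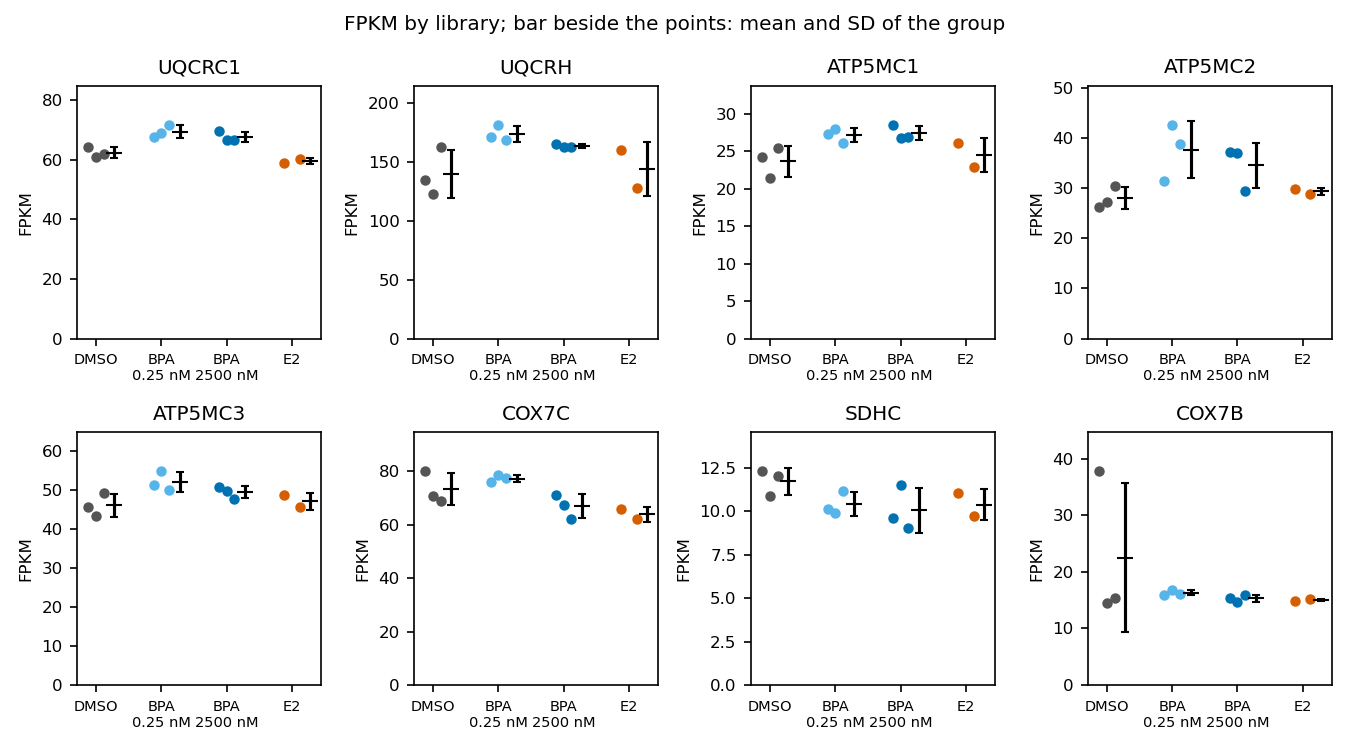
FPKM of members described in the text, 1 panel per gene, 1 point per library by treatment, with the mean and SD of each group beside the points. UQCRC1 is higher in all 6 BPA libraries than in any DMSO library, UQCRH separates from DMSO at 0.25 nM only, and COX7C is lower at 2500 nM than at 0.25 nM.

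In complex V, 16 of 16 differences were positive at 0.25 nM, with a median of 0.08, and 13 of 16 without DMSO replicate 2. The catalytic ATP5F1B stood at 363, 326 and 355 FPKM in DMSO, at 384, 413 and 359 in BPA 0.25 nM, at 363, 416 and 363 in BPA 2500 nM and at 357 and 378 in E2. The groups overlapped, and the log2 difference at 0.25 nM was 0.15 (95% interval -0.02 to 0.31). ATP5F1A, its alpha partner, stood at 42.96, 37.27 and 42.75 FPKM in DMSO, which overlapped both BPA groups. It stood at 41.7, 41.1 and 43.8 FPKM in BPA 0.25 nM and at 38.3, 39.3 and 39.0 in BPA 2500 nM. The higher dose was wholly below the lower, a log2 difference of -0.11 ± 0.06 (SE; adjusted p = 0.672).

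The c ring is built from 1 protein, and ATP5MC1, ATP5MC2 and ATP5MC3 encode the same mature c subunit with different targeting peptides. ATP5MC1 stood at 24.2, 21.4 and 25.4 FPKM in DMSO, at 27.3, 28.0 and 26.1 in BPA 0.25 nM, at 28.6, 26.8 and 26.9 in BPA 2500 nM and at 26.1 and 22.9 in E2. ATP5MC2 stood at 26.4, 27.3 and 30.5 FPKM in DMSO, at 31.5, 42.7 and 38.8 in BPA 0.25 nM, at 37.3, 37.1 and 29.4 in BPA 2500 nM and at 29.9 and 28.8 in E2. ATP5MC3 stood at 45.7, 43.3 and 49.2 FPKM in DMSO, at 51.2, 54.9 and 49.9 in BPA 0.25 nM, at 50.9, 49.8 and 47.7 in BPA 2500 nM and at 48.7 and 45.6 in E2. All 3 genes were higher in every BPA 0.25 nM library than in any DMSO library, and ATP5MC1 was so at 2500 nM too.

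At 0.25 nM the log2 differences of the c-subunit genes were 0.19 ± 0.07 (SE; adjusted p = 0.494) for ATP5MC1, 0.41 ± 0.12 (adjusted p = 0.437) for ATP5MC2 and 0.17 ± 0.06 (adjusted p = 0.450) for ATP5MC3. At 2500 nM they were 0.21 ± 0.07 (adjusted p = 0.189), 0.29 ± 0.12 (adjusted p = 0.267) and 0.10 ± 0.06 (adjusted p = 0.405). Without DMSO replicate 2, ATP5MC1 was at 0.12 for 0.25 nM and ATP5MC3 at 0.06 for 2500 nM. ATP5MC3 held the largest share of the summed FPKM of the 3 genes, 47.1 ± 0.31% in DMSO and 44.6 ± 1.7% in BPA 0.25 nM (SD, n = 3 each). The share of ATP5MC2 was 28.7 ± 1.2% in DMSO and 32.1 ± 3.1% in BPA 0.25 nM, and that of ATP5MC1 was 24.2 ± 0.96% and 23.3 ± 1.4%. The shares of ATP5MC2 overlapped between these groups; those of ATP5MC3 did not.

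ATP5ME, a small membrane subunit chosen after its values were seen, stood at 89.2, 78.9 and 95.6 FPKM in DMSO, at 98.3, 117.5 and 100.1 in BPA 0.25 nM, at 97.2, 98.6 and 96.4 in BPA 2500 nM and at 89.3 and 96.8 in E2. All 6 BPA libraries were above DMSO. Its log2 difference was 0.26 ± 0.08 (SE; adjusted p = 0.449) at 0.25 nM and 0.15 ± 0.08 (adjusted p = 0.385) at 2500 nM, the latter 0.08 without DMSO replicate 2.

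Among the other complex V members, ATP5PB stood at 61.2, 62.1 and 64.2 FPKM in DMSO and at 67.7 and 67.6 in E2, and ATP5PO, the peripheral stalk subunit OSCP, at 25.6, 25.2 and 26.4 in DMSO and 26.9 and 33.4 in E2. Both E2 libraries were above all DMSO libraries for both genes. The log2 difference was 0.11 ± 0.05 (SE; adjusted p = 0.330) for ATP5PB and 0.21 ± 0.08 (adjusted p = 0.242) for ATP5PO. Without E2 replicate 1, ATP5PO was called higher (0.36 ± 0.06, adjusted p = 0.0286), a value that rests on 1 E2 library; its locus also names DONSON.
ATP5IF1, the inhibitor that stops ATP synthase from hydrolysing ATP, stood at 61.6, 52.7 and 62.9 FPKM in DMSO and at 53.9 and 50.5 in E2. The groups overlapped through DMSO replicate 2, with a log2 difference of -0.17 ± 0.07 (SE; adjusted p = 0.316). ATP5MF, a small membrane subunit at a locus that also names PTCD1, stood at 25.2, 25.2 and 27.9 FPKM in DMSO and 27.3, 29.3 and 28.0 in BPA 2500 nM, a log2 difference of 0.11 ± 0.05 (SE; adjusted p = 0.317).

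Complex IV had 6 of 11 positive differences between BPA 2500 nM and DMSO, with a median of 0.06. Between the BPA doses all 11 were negative, with a median of -0.08; without BPA 0.25 nM replicate 2, 3 of the 11 were positive and the median was -0.03. COX4I1, the ubiquitous form of the largest nuclear subunit, stood at 34.3, 31.3 and 35.2 FPKM in DMSO, at 35.6, 37.7 and 36.4 in BPA 0.25 nM, at 34.9, 36.0 and 35.3 in BPA 2500 nM and at 36.5 and 30.9 in E2. Only the 0.25 nM group was separate from DMSO, with a log2 difference of 0.12 (95% interval -0.03 to 0.27), or 0.07 without DMSO replicate 2.
COX7C, a small subunit, stood at 80.2, 70.9 and 68.9 FPKM in DMSO, at 75.9, 78.5 and 77.5 in BPA 0.25 nM, at 71.3, 67.5 and 62.4 in BPA 2500 nM and at 66.0 and 62.0 in E2. The 2500 nM libraries lay below all 0.25 nM libraries, and the E2 libraries below all DMSO libraries. The log2 difference was -0.20 ± 0.07 (SE; adjusted p = 0.513) between the doses and -0.19 ± 0.07 (adjusted p = 0.264) for E2.
COX6A1, the ubiquitous form of subunit 6A, stood at 36.3, 34.6 and 34.3 FPKM in DMSO, at 34.1, 33.4 and 33.7 in BPA 2500 nM and at 33.7 and 31.9 in E2. Both treated groups were below DMSO by a narrow margin, with log2 differences of -0.05 ± 0.04 (SE; adjusted p = 0.533) and -0.09 ± 0.05 (adjusted p = 0.380). Its locus also names GATC.

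Complex II did not lean as one. SDHA stood at 6.5, 6.46 and 6.6 FPKM in DMSO, at 6.97, 7.11 and 7.21 in BPA 0.25 nM, at 6.96, 6.91 and 6.76 in BPA 2500 nM and at 6.5 and 6.42 in E2. It had the tightest replicates of the 40 (within-group CV 1.36%), and all 6 BPA libraries were above DMSO. The log2 difference was 0.11 ± 0.04 (SE; adjusted p = 0.486) at 0.25 nM and 0.07 ± 0.04 (adjusted p = 0.412) at 2500 nM, for a locus that also names PDCD6 and AHRR.
SDHC, a membrane anchor, stood at 12.3, 10.9 and 12.0 FPKM in DMSO, at 10.2, 9.91 and 11.2 in BPA 0.25 nM, at 9.60, 11.5 and 9.06 in BPA 2500 nM and at 11.03 and 9.74 in E2. Each treated group overlapped DMSO, and the log2 difference at 2500 nM was -0.21 ± 0.09 (SE; adjusted p = 0.280). SDHD, the other anchor, stood at 10.09, 9.81 and 9.29 FPKM in DMSO, which overlapped both BPA groups. It stood at 7.96, 9.76 and 9.09 FPKM in BPA 0.25 nM and at 10.6, 11.03 and 9.25 in BPA 2500 nM. For SDHD the log2 difference between the doses was 0.19 ± 0.08 (SE, limma adjusted p = 0.631). Its locus also names TEX12 and BCO2.

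In BPA 2500 nM against DMSO, 30 of the 40 differences were positive, against 42.8% of all tested loci, with a median of 0.07 against -0.03. The 2500 nM libraries lay wholly above DMSO for 7 members and wholly below for 1; among all loci these shares were 9.54% and 17.1%. At an unadjusted p under 0.05, 4 members were higher and 1 lower in limma, against 6.05% and 11.2% of all loci. All 9 complex III genes were positive, with a median of 0.10, as were 12 of 16 in complex V and 3 of 4 in complex II. Without DMSO replicate 2 the median of all members was 0.05, and 8 of 9 complex III differences were positive. At an unadjusted p under 0.05, limma then counted 0 members higher, against 570 of 12102 tested loci, and 3 lower (ATP5IF1, ATP5F1A and SDHC). The share of all loci lower under this setting is not given here.

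In E2 against DMSO, 25 of 40 differences were positive, against 48.1% of all tested loci, and the median was 0.02 against -0.01. The E2 libraries lay wholly above DMSO for 4 members and wholly below for 3, against 12.2% and 16.2% of all loci. At an unadjusted p under 0.05, 1 member was higher and 2 were lower in limma, against 6.2% and 9.22% of all loci. Complex V had 14 of 16 positive differences and complex IV 4 of 11. The complex IV count was 8 of 11 without DMSO replicate 1 and 1 of 11 without DMSO replicate 2, and that of complex V 14 and 11 of 16. A difference between the complexes was not tested. The E2 libraries differed among themselves: the members' median deviation from their 11-library mean was 0.00 in replicate 1 and -0.09 in replicate 2. Without DMSO replicate 2 or without E2 replicate 1, the median turned to -0.02.

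Between the BPA doses, 8 of 40 differences were positive, against 37.4% of all loci, and the median was -0.06 against -0.03. The 2500 nM libraries lay wholly below the 0.25 nM libraries for 8 members and wholly above for 0, against 12.0% and 4.66% of all loci. In limma, 1 member was higher and 2 were lower at an unadjusted p under 0.05, against 2.12% and 5.69% of all loci. SDHA, UQCRQ, UQCR10, UQCRH, COX7C, COX6A1, ATP5F1A and ATP5IF1 were the 8 members below.

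**Figure D5:**
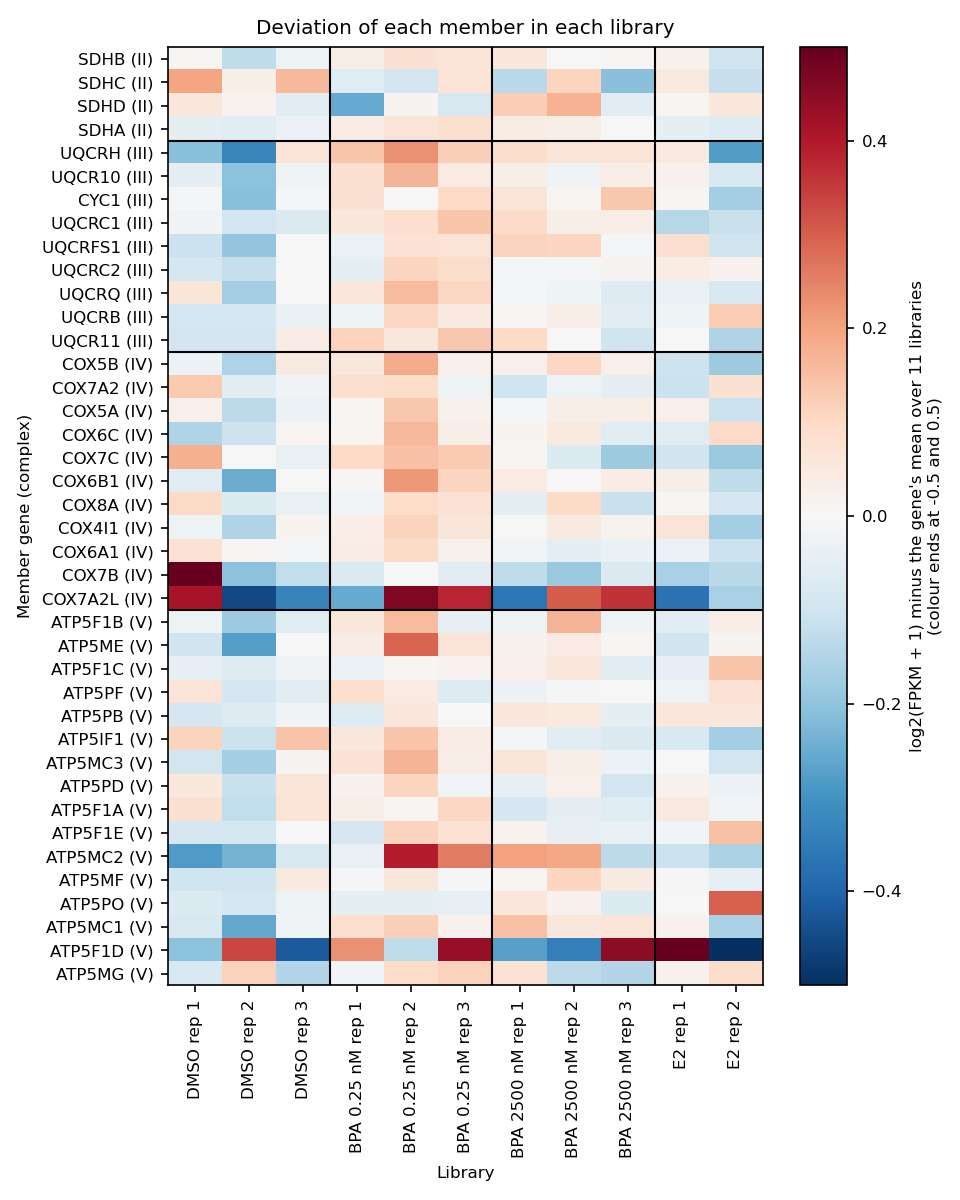
Deviation of each member (rows, by complex) from its own 11-library mean on the log2(FPKM + 1) scale, in each library (columns, by treatment); the colour bar says where colours saturate. DMSO replicate 2 is the library in which most members (34 of 40) fall below their mean, and BPA 0.25 nM replicate 2 the one in which most (37 of 40) lie above it.

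Other genes of oxidative phosphorylation gave no call in any of the 4 comparisons. None of 37 tested nuclear complex I genes was called, nor any of the 39 tested assembly factors of complexes II to V, 13 genes of the citric acid cycle, 7 adenine nucleotide and phosphate carriers or 11 regulators of mitochondrial biogenesis. Of the 37 complex I genes, which encode the NADH dehydrogenase upstream of complex III, 30 had a positive difference at BPA 0.25 nM, 19 at BPA 2500 nM and 11 for E2. Of 24 complex IV assembly factors, 15, 11 and 12 did. Some of these complex IV assembly factors serve the supply of copper or haem to the enzyme. The median difference of the 24 at 0.25 nM was 0.03.

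The mitochondrially encoded subunits of complexes III to V lie at loci that join genes. MT-CYB of complex III and MT-CO1 and MT-CO2 of complex IV share 1 locus with 4 complex I genes, at 5645 ± 451 FPKM in DMSO, 5494 ± 40.2 in BPA 0.25 nM and 5115 ± 472 in BPA 2500 nM (SD, n = 3 each), and 5076 ± 659 in E2 (SD, n = 2). MT-CO3, MT-ATP6 and MT-ATP8 share another, at 8917 ± 555, 8132 ± 201, 8308 ± 174 and 7924 ± 1270 FPKM in the same groups. The names of 5 mitochondrial mRNAs, MT-ND1, MT-ND4, MT-ND5, MT-CO1 and MT-CO3, occur at a second locus, and only the locus with the highest mean was read for each mRNA. All 5 loci read for the 13 mRNAs had negative differences in BPA 0.25 nM against DMSO, with a median of -0.13. There, 37 of the 40 nuclear members had positive ones. In BPA 2500 nM and in E2, 4 of the 5 loci were negative and 1 positive, with medians of -0.14 and -0.16. Of the 40 members, 30 and 25 were positive there. None of the 5 loci was called. Because every level is relative to the rest of its library, the directions of these loci and of the members are not independent.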

How the data were processed

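RNA of 11 IOSE80 libraries was analysed. The authors deposited FPKM, rounded to 2 decimals, for every locus of each library. Per the submitters' processing notes, the tools were HISAT, UMI-tools, StringTie and edgeR; no version or sequence of steps is recorded there. The notes list hg19, yet positions follow GRCh38: 74.8% of 14123 Ensembl loci shared with GENCODE 29 match it at both ends. The values do not step by single reads, so depth is unknown and precision rests on the spread between libraries. Strandedness is not stated, so antisense and joined loci are uncertain.

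Members were matched by gene name. Loci with at least 1 FPKM in at least 2 libraries were tested (12182, including all 40 members). Group means of log2(FPKM + 1), a scale that understates changes of low genes, were fitted over all 11 libraries by limma 3.58.1 (R 4.3.3, statmod 1.5.0; trended, robust variances; residual degrees of freedom 7, prior 2.4 at the median). P-values were two-sided, with Benjamini-Hochberg adjustment over all tested loci within each of 4 comparisons and calls at an adjusted p under 0.05. The fit was checked on simulated data. Plots were drawn in matplotlib 3.10.9, and tables built with numpy 2.4.6 and pandas 2.3.3 under Python 3.11.15. Described in full were any called member, the 3 members with the smallest p in each direction per comparison, SDHA, UQCRC1, COX4I1 and ATP5F1B, and the 3 c-subunit genes; UQCRH, ATP5ME, COX7A2L and ATP5F1D were added after their values were seen. The members and lists were chosen with earlier results of these data known. Alternatives covered scaling, pseudocount, filter, variance settings, a replicate block, only the groups compared, only members at loci of their own and leaving out each library. E2 replicate 3 was not analysed here.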

Additional observations from a re-analysis of the deposited data

How the results depend on the processing

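Results were recomputed under 20 alternatives. Members called lower stayed at 0 under all of them, and members called higher at 0 except for 1 in E2 against DMSO without E2 replicate 1. Leaving out 1 library at a time, the members' median difference ranged from 0.08 to 0.14 for BPA 0.25 nM, from 0.05 to 0.09 for BPA 2500 nM, from -0.0214 to 0.0400 for E2 and from -0.09 to -0.03 between the doses. For E2 it was -0.0197 without DMSO replicate 2 and -0.0214 without E2 replicate 1, so its sign depends on these libraries. Of 24 single-gene differences, COX7B at BPA 0.25 nM ranged from -0.54 to 0.12 when 1 library was left out and reversed to 0.12 without DMSO replicate 1, and ATP5PO in E2 became called (adjusted p = 0.0286 without E2 replicate 1). With the replicate number as a block, the members' medians were 0.11, 0.07, 0.03 and -0.06, and 0 members were called in each comparison. The numbers gave no clear sign of pairing: of 15 same-numbered pairs, 1 had deviations correlated above 0.1 (r from -0.12 to 0.16). Deviations were taken within groups of 2 or 3 libraries, so this check cannot settle whether the samples were paired. The unknown depth and the 2 E2 libraries limit what could be detected.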

Other observations

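Regulators of mitochondrial biogenesis are described here as values. PPARGC1B, a coactivator of respiratory genes, stood at 0.74 ± 0.55 FPKM in DMSO, 1.53 ± 0.12 in BPA 0.25 nM and 1.62 ± 0.04 in BPA 2500 nM (SD, n = 3 each), near the minimum for testing. ESRRA, the oestrogen-related receptor with which such coactivators act, stood at 14.8 ± 2.4, 19.3 ± 1.7 and 19.7 ± 1.2 FPKM in the same groups and at 19.5 ± 1.8 in E2 (SD, n = 2). PPRC1, a related coactivator, stood at 7.76 ± 0.52 FPKM in DMSO and 9.50 ± 0.37 in BPA 2500 nM, a log2 difference of 0.26 with an adjusted p of 0.0611 in limma. TFB1M, a mitochondrial rRNA methyltransferase, stood at 4.01 ± 0.22 FPKM in DMSO and 3.37 ± 0.42 in BPA 0.25 nM, a log2 difference of -0.20 with an adjusted p of 0.484. At BPA 0.25 nM, 7 of the 11 tested regulators had positive and 4 negative differences; none was called in any comparison. NRF1 stood at 4.27 ± 0.20 FPKM in DMSO and 4.31 ± 0.35 in BPA 0.25 nM. These regulators were chosen after their values were seen.

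Tissue isoforms of complex IV were at the floor of the data. COX6B2 of testis had a mean of 0.09 FPKM, COX7A1 of muscle and heart 0.18 FPKM and COX8C 0.01 FPKM, against 56.2 FPKM for COX6B1, 91.1 for COX7A2 and 54.7 for COX8A.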
